A study of Rattus norvegicus with 7 samples.

Results

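Akr1b8, Akr1b10, Akr1b1 and Akr1a1 encode reductases of the aldo-keto reductase superfamily, and they were 4 of the 17147 gene symbols measured in rat bone marrow mesenchymal stem cells (rMSCs) 4 h after seeding. The genes were chosen from values of these same libraries, because Akr1b8 was high on both polymer films, highest on ISB-P and low on tissue culture plastic, and its close relatives were added by name. The levels of Akr1b8 are therefore a description and carry no test.

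The rMSCs were primary cells isolated, per the study's methods, from the hind limb marrow of a young male Sprague-Dawley rat and kept in serum-containing medium. They were seeded for 4 h on tissue culture plate (TCP, 1 library), on polycaprolactone film (PCL, 3 libraries) or on ISB-P film (3 libraries), a polycaprolactone-based polyurethane made with propoxylated isosorbide. Both films were sterilized with ethylene oxide gas, and no treatment, transgene or knockdown was applied to any group. RNA-seq was run to ask how the surface under freshly seeded rMSCs altered their transcripts. Separate animals were not named for the replicates, so the p-values measure the spread between these libraries, which may be technical.

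Each library came as 1 value per gene, read as FPKM, fragments scaled by transcript length and by the fragments of the library. The values summed to 539393 in the TCP library, to between 542921 and 597954 on PCL and to between 590628 and 660124 on ISB-P, and 12042 to 12610 genes were above 0. The number of reads behind them is unknown. The marrow stromal markers summed to 18022 FPKM on TCP, 11207 to 13294 FPKM on PCL and 9633 to 13218 FPKM on ISB-P, with 1 of the 12 (Col1a2) listed at 0 in every library. The haematopoietic markers summed to 130 FPKM on TCP, 39.2 to 46.6 FPKM on PCL and 39.4 to 45.3 FPKM on ISB-P, and Cd34, Cd3e and Ms4a1 were at 0 throughout. The 6 endothelial markers summed to at most 0.752 FPKM in any library.

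Aldo-keto reductases are soluble enzymes that use NADPH to reduce aldehydes and ketones to alcohols. Akr1b1 is aldose reductase, which turns glucose into sorbitol in the first step of the polyol pathway and also clears lipid aldehydes. Akr1b8 and Akr1b10 are close relatives of it with activity towards lipid aldehydes and retinaldehyde, and Akr1b8 is known in mouse fibroblasts as a growth factor-induced gene. Akr1a1 is aldehyde reductase, a broadly expressed enzyme that acts in ascorbate synthesis in rodents. Several genes of this kind are targets of NRF2, the transcription factor that responds to electrophiles and oxidants.

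In the RefSeq gene table (GRCr8), Akr1b1, Akr1b8 and Akr1b10 lay side by side in that order on chromosome 4, and Akr1a1 lay on chromosome 5. The promoter windows of Akr1b8 and Akr1b10, from 250 bases before the annotated start to 50 bases from it, are shown because these neighbouring genes differed between the films by nearly the same fold. They are RefSeq sequence of GRCr8, 5′ to 3′ on the coding strand. Capitals mark the letters GCTTGCTCA at -70 to -62 in Akr1b8, a match on the opposite strand to TGANNNNGC, the relaxed core of the antioxidant response element. In Akr1b10 they mark GAAAGTTC at -26 to -19, a match to GAANNTTC, a pair of facing heat shock element units.
Akr1b8, chr4:63964171-63964470, plus strand: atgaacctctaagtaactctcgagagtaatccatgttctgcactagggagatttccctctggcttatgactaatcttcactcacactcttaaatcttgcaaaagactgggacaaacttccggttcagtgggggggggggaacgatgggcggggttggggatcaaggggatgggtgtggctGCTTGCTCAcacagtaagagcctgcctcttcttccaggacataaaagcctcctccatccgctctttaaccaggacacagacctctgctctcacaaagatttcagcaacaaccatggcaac
Akr1b10, chr4:64005382-64005681, plus strand: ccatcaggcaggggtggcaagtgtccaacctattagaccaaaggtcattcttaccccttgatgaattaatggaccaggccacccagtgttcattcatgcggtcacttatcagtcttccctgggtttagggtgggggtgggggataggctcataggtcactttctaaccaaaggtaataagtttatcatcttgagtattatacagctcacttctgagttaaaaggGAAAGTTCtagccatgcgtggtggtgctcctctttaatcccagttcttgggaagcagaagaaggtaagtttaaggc

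Searched on both strands, TGANNNNGC was found in 40.5% of 33469 RefSeq promoter windows of the same length and GAANNTTC in 8.59%. The same relaxed core was also in the window of Akr1a1 (GCTGGCTCA at -27 to -19). The stricter antioxidant core TGACNNNGC, in 12.1% of all windows, and the AP-1 letters TGANTCA, in 7.33%, were in none of the windows of Akr1b8, Akr1b10 and Akr1a1. Akr1b1 was not searched. A TGACNNNGC match also matches TGANNNNGC.

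Akr1b8 was moderately abundant on TCP and among the most abundant transcripts on both films. It measured 50.6 FPKM in the TCP library. On PCL it measured 1326, 1194 and 1199.8 FPKM in replicates 1, 2 and 3, and on ISB-P 2840, 2564 and 2791 FPKM. Every ISB-P library was above every PCL library, and all 6 film libraries were far above TCP. The means were 1240 ± 75.0 FPKM on PCL and 2732 ± 147 FPKM on ISB-P (SD, n = 3 each), a ratio of 2.20. By level within a library (1 is the highest), Akr1b8 stood at rank 1713 of 12222 genes above 0 on TCP, at 56 to 73 on PCL and at 21 or 22 on ISB-P. On the log2(FPKM + 1) scale the ISB-P libraries were higher than PCL by 1.14. Akr1b8 was chosen on this contrast, so the difference is given as a size only. Within libraries of the same replicate number, ISB-P was 2.14, 2.15 and 2.33 times PCL.

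Akr1b10 was far less abundant than Akr1b8 and differed between the films by about the same fold. It measured 2.41 FPKM on TCP, 45.8, 64.3 and 60.6 FPKM on PCL, and 111, 129 and 139 FPKM on ISB-P. The 2 films did not overlap, and replicate 1 was the lowest library of each film. The means were 56.9 ± 9.78 and 126 ± 14.0 FPKM (SD, n = 3 each), a ratio of 2.22, and the difference on the log2(FPKM + 1) scale was 1.15 (SE 0.17, 95% interval 0.74 to 1.56, limma adjusted p = 0.0310). Across all 9467 tested genes, 1.10% were called higher on ISB-P and 0.623% lower by the same test at an adjusted p under 0.05. The call did not hold with 1 library left out: the difference stayed between 1.00 and 1.24, and the limma adjusted p lay between 0.0553 and 0.194 in each of the 6 cases, whichever PCL or ISB-P replicate was absent. Over all tested genes, leaving out 1 library gave 14 to 82 genes called higher, in place of 104. With the replicate number as a block, limma gave an adjusted p of 3.07e-05 for Akr1b10, in a fit that called 13.0% of tested genes higher and 11.4% lower.

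Akr1b1, aldose reductase, showed a smaller difference. It measured 159 FPKM on TCP, 354, 348 and 343 FPKM on PCL and 463, 453 and 425 FPKM on ISB-P. The libraries of each film lay close together and the films did not overlap. The ratio of the means, 348 ± 5.27 and 447 ± 19.3 FPKM (SD, n = 3 each), was 1.28, and the log2 difference of 0.36 (SE 0.10, 95% interval 0.11 to 0.60) did not pass the test (limma adjusted p = 0.191). With the replicate number as a block, limma gave an adjusted p of 0.00434 for Akr1b1. That fit called 13.0% of tested genes higher on ISB-P and 11.4% lower.

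Akr1a1, aldehyde reductase, differed least between the surfaces. It measured 487 FPKM on TCP, 504, 454 and 472 FPKM on PCL and 589, 509 and 507 FPKM on ISB-P. The TCP value lay inside the range of the PCL libraries, and the lowest ISB-P library was just above the highest PCL library. The log2 difference between the films was 0.16 (SE 0.12, 95% interval -0.11 to 0.44, limma adjusted p = 0.744).

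For Akr1b10, Akr1b1 and Akr1a1 the lowest ISB-P library was thus above the highest PCL library, a pattern found in 8.17% of the 9467 tested genes. Akr1b8 showed it too but was chosen for being highest on ISB-P, so it does not count here. For Akr1a1 the gap was 506.7 against 504.4 FPKM in unscaled values, and its log2 difference was 0.05 after scaling to a common total. For Akr1b10, Akr1b1 and Akr1a1 taken one gene at a time, the exact permutation test over 3 against 3 libraries gave p = 0.1 (two-sided), the smallest value it can give. In the plot of levels by library, Akr1b8 and Akr1b10 are set apart by surface with like spacing, and the Akr1a1 points lie close together.

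**Figure D1:**
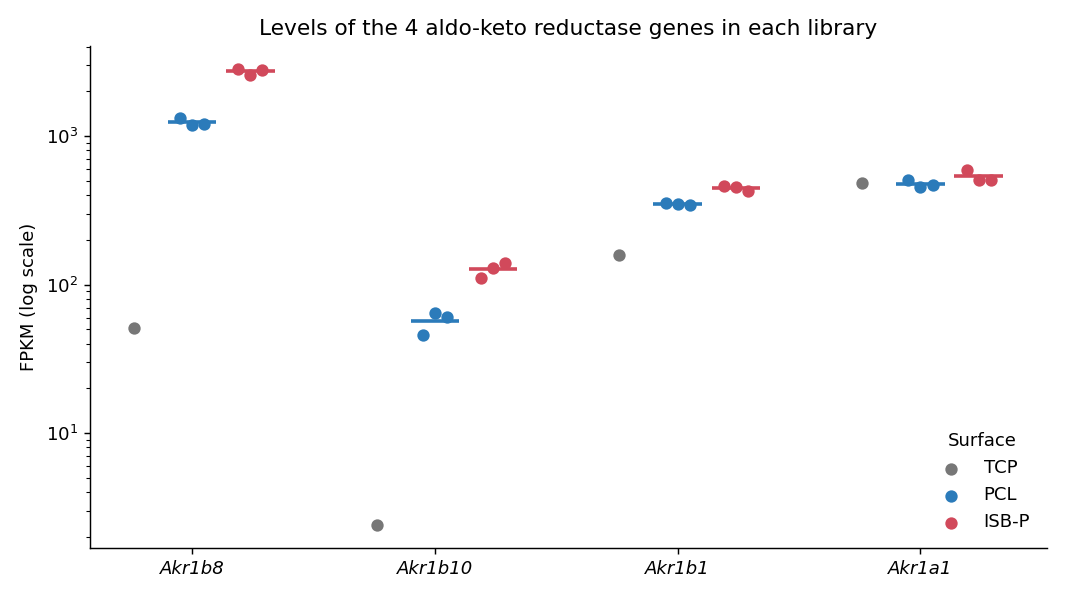
FPKM on a log scale for Akr1b8, Akr1b10, Akr1b1 and Akr1a1, with 1 point per library and a bar at the mean of the 3 PCL or 3 ISB-P libraries. Akr1b8 lies at 50.6 FPKM on TCP, near 1240 on PCL and near 2732 on ISB-P, while Akr1a1 lies between 454 and 589 FPKM in every library.

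The order of the 4 levels changed with the surface. On TCP it was Akr1a1, Akr1b1, Akr1b8, Akr1b10 from high to low, in a single library. On both films it was Akr1b8, Akr1a1, Akr1b1, Akr1b10, and no neighbours in that order overlapped within a film. Taken as FPKM ratios within each library, where any scaling of the whole library cancels, Akr1b8 was 0.104 times Akr1a1 on TCP, 2.54 to 2.63 times on PCL and 4.83 to 5.51 times on ISB-P. Akr1b1 was 0.327 times Akr1a1 on TCP, 0.701 to 0.768 times on PCL and 0.786 to 0.890 times on ISB-P, with no overlap between the films (exact permutation p = 0.1). Akr1b8 kept a like ratio to its neighbour Akr1b10 on all surfaces, 21.0 in the TCP library, 22.4 ± 5.68 over the PCL libraries and 21.8 ± 3.17 over the ISB-P libraries (SD, n = 3 each).

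The 18 genes with an Akr symbol summed to 745 FPKM on TCP, 2257, 2089 and 2103 FPKM on PCL and 4033, 3680 and 3886 FPKM on ISB-P. Akr1b8 made up 6.79% of that sum on TCP, 57.0% to 58.8% on PCL and 69.7% to 71.8% on ISB-P. Akr1a1 made up 65.3% on TCP and 13.0% to 14.6% on ISB-P. The larger sums on the films were thus mostly Akr1b8, as the stacked bars show.

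**Figure D2:**
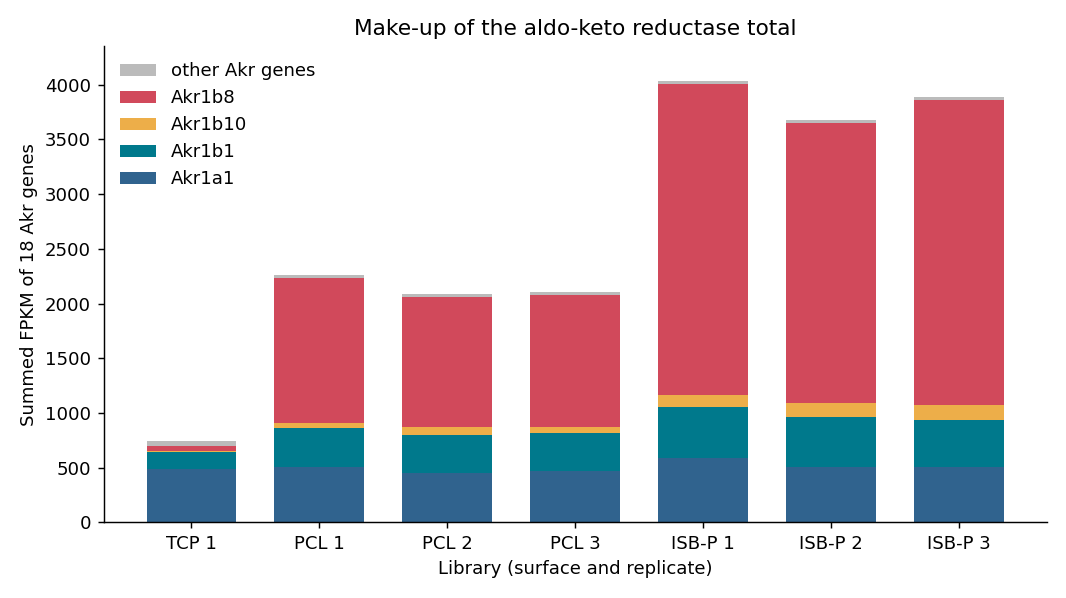
Summed FPKM of the 18 genes with an Akr symbol in each of the 7 libraries, split into Akr1a1, Akr1b1, Akr1b10, Akr1b8 and the rest. The Akr1b8 segment grows from 6.79% of the bar on TCP to 71.8% in ISB-P replicate 3, and the Akr1a1 segment stays near the same height.

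Against TCP only sizes can be given, since TCP had 1 library. As ratios of the film mean plus 1 FPKM to the TCP value plus 1 FPKM, Akr1b8 was 24.0 times its TCP level on PCL and 52.9 times on ISB-P. Akr1b10 was at 17.0 and 37.4 times, Akr1b1 at 2.18 and 2.79 times, and Akr1a1 at 0.980 and 1.10 times. Akr1b8 and Akr1b10 ranked 3 and 4 among 5116 genes of at least 16 FPKM on PCL or TCP, and 2 and 4 among 5239 such genes on ISB-P or TCP, by size of increase. A ratio over 2 was reached by 5.86% of genes on PCL, by 11.1% on ISB-P and by 6.03% on both films. Since Akr1b8 was chosen on these contrasts, nothing is read from its rank. The ratio of Akr1a1 on ISB-P fell below 1 when the libraries were quantile normalized (0.909) or scaled to the same sum (0.969).

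The haematopoietic markers given above had a higher sum on TCP than in any film library. Cd68, Cd14, Csf1r and Lyz2 (4 of the 9 measured, 2 of them of at least 16 FPKM) were over 2-fold lower on both films at 0.279 to 0.498 times TCP. The share of all genes lowered this far on both films was not counted, so nothing is read from the count of 4. The part of these markers in the ratios to TCP was not tested. Between the films the sums of the haematopoietic markers overlapped. In bulk RNA, fewer cells of a type and less RNA per cell cannot be told apart.

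The other aldo-keto reductases were at 26.0 FPKM or less in every library. Of 17 (14 with an Akr symbol and 3 potassium channel beta subunits of the same fold), Akr1c1 and Akr1c2 were at 0 in every library and 3 passed the filter on low values. None of these 3 was called by limma, with or without the block, where 163 of the 9467 tested genes were called without it and 2307 with it. At an unadjusted p under 0.05, 0 of the 3 passed, against 1145 of all tested genes. Akr1c14, the rat 3-alpha-hydroxysteroid dehydrogenase, measured 15.8 FPKM on TCP, 2.09, 2.09 and 3.09 FPKM on PCL and 1.61, 2.66 and 4.28 FPKM on ISB-P, so that it was lower on both films (0.204 and 0.229 times TCP) with the films overlapping (log2 difference 0.12, SE 0.26, limma adjusted p = 0.939). Akr7a2, an aflatoxin aldehyde and succinic semialdehyde reductase, measured 26.0 FPKM on TCP, 19.5 to 22.8 FPKM on PCL and 13.9 to 24.3 FPKM on ISB-P. Akr1e2 lay between 2.15 and 3.47 FPKM in every library. Akr7a3 did not exceed 1.14 FPKM.

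The genes around the cluster on chromosome 4 were also checked. Akr1b7, next to Akr1b10, was at 0 in 6 of 7 libraries and at 0.0320 FPKM in ISB-P replicate 2. Slc35b4, a nucleotide sugar transporter on the Akr1b1 side, measured 21.4 FPKM on TCP, 17.7 to 22.6 FPKM on PCL and 16.4 to 20.2 FPKM on ISB-P (limma adjusted p = 0.824 between the films). Bpgm, the bisphosphoglycerate mutase gene beyond Akr1b7, measured 8.62 FPKM on TCP, 6.54 to 8.76 FPKM on PCL and 7.23 to 8.65 FPKM on ISB-P (limma adjusted p = 0.981). The genes on either side of the cluster thus had overlapping ranges on the films, close to their TCP values. RefSeq lists 5 pseudogenes named for Akr1b8 and 5 for Akr1b1, none of which has a value in the tables, so how reads shared with such copies were assigned is uncertain.

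The polyol and tonicity lists hold the genes that act with or are regulated like aldose reductase. Of 5 polyol pathway genes, 2 were tested and none was called (1 at an unadjusted p under 0.05, as were 1145 of all 9467 tested genes). Slc2a1, the glucose transporter GLUT1, measured 24.5 FPKM on TCP, 67.7, 67.7 and 63.7 FPKM on PCL and 94.6, 88.2 and 76.8 FPKM on ISB-P. The films did not overlap (log2 difference 0.37, SE 0.13, limma adjusted p = 0.291, or 0.00730 with the block). Sord, the sorbitol dehydrogenase of the step after aldose reductase, measured 23.4 FPKM on TCP, 30.5 to 33.8 FPKM on PCL and 31.7 to 37.9 FPKM on ISB-P. Of 8 genes induced by high tonicity, 6 were tested and none was called (1 at an unadjusted p under 0.05, and 1 higher and 1 lower with the block). The median difference was 0.11 on the log2 scale against 0.02 over all tested genes. With the block, Slc5a3 was the 1 higher (log2 difference 0.35) and Slc6a6 the 1 lower (-0.35). That fit called 13.0% of all tested genes higher and 11.4% lower. On PCL, Slc5a3 measured 0.922 to 1.01 FPKM, so it passed the filter on low values through ISB-P. Only 3 of the 8 reached 16 FPKM, and none of these was over 2-fold higher on both films than on TCP. The share over all genes was 6.03%, so 3 genes are too few to read. The most abundant of the 8, S100a4 and Aqp1, had log2 differences of 0.07 and 0.10 (limma adjusted p = 0.908 and 0.899).

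Other enzymes that clear aldehydes and ketones included genes called in each direction. Of 23 such genes, 18 were tested, 1 was called higher on ISB-P and 1 was called lower, and the median log2 difference was -0.05. Over all tested genes, 1.10% were called higher and 0.623% lower. With the block, 2 of the 18 were called each way, where 13.0% of all tested genes were called higher and 11.4% lower. These counts are too few to read. Aldh3a1, an aldehyde dehydrogenase that oxidizes aliphatic and aromatic aldehydes, measured 118 FPKM on TCP, 107, 113 and 113 FPKM on PCL and 28.7, 28.6 and 27.8 FPKM on ISB-P. It was low on ISB-P alone, with a log2 difference of -1.94 (SE 0.11, limma adjusted p = 0.00131), and was called in 6 of 6 fits with a library left out. Ptgr1, which reduces leukotriene B4 metabolites and 4-hydroxynonenal-type alkenals, measured 124 FPKM on TCP, 314, 325 and 383 FPKM on PCL and 572, 611 and 785 FPKM on ISB-P. It was lowest on TCP and highest on ISB-P, as Akr1b8 was. The log2 difference between the films was 0.94 (SE 0.16, limma adjusted p = 0.0450, or 3.95e-05 with the block). The call without the block was lost in each fit with a library left out (0.0601 to 0.235). Cbr1, a carbonyl reductase, was listed at 0 in every library.

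The retinoid list held enzymes, binding proteins and the receptors Rara, Rarb and Rarg. Of its 16 genes, 11 were tested. With the block, 2 were called higher and 3 lower (Rara and Rarg among the lower), where 13.0% and 11.4% of all tested genes were. Without the block, 1 was called higher, against 1.10% of all tested genes. This was Aldh1a3, which oxidizes retinaldehyde, the substrate that the Akr1b enzymes reduce. It measured 4.31 FPKM on TCP, 0.598, 0.355 and 0.310 FPKM on PCL and 1.33, 1.24 and 1.17 FPKM on ISB-P, so that it was highest on TCP and the films lay below it (log2 difference between the films 0.66, SE 0.11, limma adjusted p = 0.0412, lost in each fit with a library left out). Among the film libraries Aldh1a3 reached 1 FPKM, the filter on low values, only on ISB-P, so nothing is read from its call. The prostaglandin list held synthesis genes, the degrading enzyme Hpgd and the receptors Ptgfr, Ptger2 and Ptger4. Of its 13 genes, 12 were tested and none was called (3 at an unadjusted p under 0.05, and 3 higher with the block). Over all 9467 tested genes, 1145 had an unadjusted p under 0.05, and 13.0% were called higher with the block. The 3 at an unadjusted p under 0.05 were Ptgis and the receptors Ptgfr and Ptger4, and the 3 with the block were Ptgis, Ptgfr and Ptges3. Among the film libraries Ptgis reached 1 FPKM only on ISB-P, where it was higher, so its place in these counts is not read. Ptges3, a prostaglandin E synthase and HSP90 co-chaperone, measured 170.3 FPKM on TCP, 229, 330 and 440 FPKM on PCL and 331, 450 and 665 FPKM on ISB-P, with a spread among libraries of 1 film as wide as the gap between films (log2 difference 0.52, SE 0.32, limma adjusted p = 0.655, or 8.03e-04 with the block). Ptgs2, cyclooxygenase-2, measured 30.0 FPKM on TCP, 81.1 to 97.9 FPKM on PCL and 73.3 to 101 FPKM on ISB-P.

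Many NRF2 target genes were higher on the films than on TCP. Of 25 listed targets of at least 16 FPKM, 13 were over 2-fold higher on both films than on TCP, against 6.03% of all such genes. The list was chosen with earlier results of these data known. This count and the list's differences between the films, given below, are therefore descriptions. The 13 include genes of glutathione and thioredoxin metabolism. Values for 3 of them, named after their values were seen, follow. Gclc, the catalytic subunit of glutamate-cysteine ligase, measured 12.8 FPKM on TCP, 93.4 to 126 FPKM on PCL and 128 to 166 FPKM on ISB-P. Nqo1, a quinone reductase, measured 183 FPKM on TCP, 1274 to 1468 FPKM on PCL and 1307 to 1633 FPKM on ISB-P, so that it was high on both films, which overlapped. Hmox1, heme oxygenase-1, measured 186 FPKM on TCP, 1313 to 1686 FPKM on PCL and 2289 to 3451 FPKM on ISB-P.

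Between the films, 23 of the 26 tested NRF2 targets had a positive difference, with a median of 0.28 on the log2 scale, where 5005 of 9467 tested genes were positive and the median was 0.02. By limma with the block, 16 of the 26 were called higher on ISB-P, against 13.0% of all tested genes, and none lower. Without the block, 1 target was called higher, against 1.10% of all tested genes, and none lower. This was Srxn1, sulfiredoxin, which repairs overoxidized peroxiredoxins. It measured 87.3 FPKM on TCP, 374, 379 and 376 FPKM on PCL and 617, 598 and 587 FPKM on ISB-P (log2 difference 0.67, SE 0.10, limma adjusted p = 0.0287). The call held in 1 of 6 fits with a library left out, with adjusted p from 0.0481 to 0.201. The plot of differences by list sets these groups side by side.

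**Figure D3:**
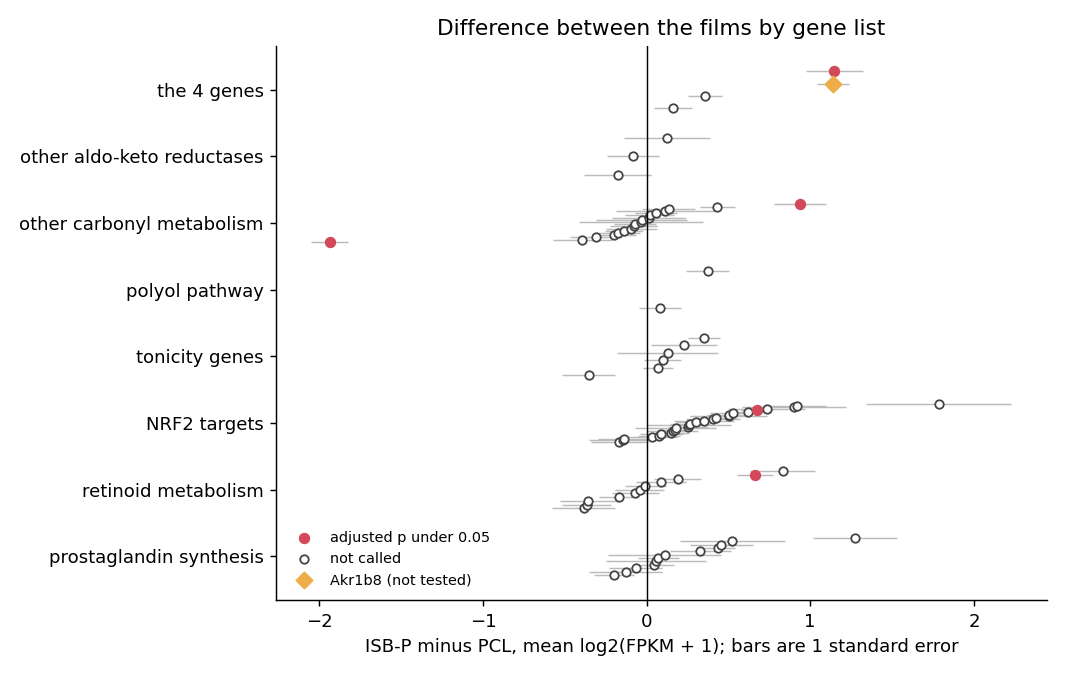
Difference between ISB-P and PCL in mean log2(FPKM + 1) for each tested gene of the 4 chosen genes and 7 related lists, with bars of 1 standard error. Filled red points passed limma at an adjusted p under 0.05, open points did not, and the diamond is Akr1b8, which was not tested. Aldh3a1 lies at -1.94, Akr1b10 and Akr1b8 at 1.15 and 1.14, and most NRF2 targets lie above 0. Slc7a11 of the NRF2 list (1.79) and Ptgfr of the prostaglandin list (1.27) lie further right, as open points.

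The genes whose levels ran most like Akr1b8 were sought among 330 tested genes of at least 16 FPKM on a surface and over 2-fold higher on PCL than on TCP, by Pearson's r of log2(FPKM + 1) over the 7 libraries. These libraries fall into 3 surfaces, and TCP weighs heavily in every r, so the values are a description. The 5 highest were Srxn1 (r = 0.997), Bach1 (0.997), Akr1b1 (0.995), Nup93 (0.994) and Tgfa (0.992), and Akr1b10 came next (0.992). Bach1, a repressor of antioxidant genes, measured 26.6 FPKM on TCP, 64.4 to 67.4 FPKM on PCL and 76.8 to 78.1 FPKM on ISB-P (limma adjusted p = 0.488 between the films, or 0.0335 with the block). Nup93, a nuclear pore protein, measured 12.7 FPKM on TCP, 26.3 to 28.4 FPKM on PCL and 30.0 to 32.9 FPKM on ISB-P. Tgfa, a ligand of the EGF receptor, measured 2.42 FPKM on TCP, 12.4 to 14.6 FPKM on PCL and 21.9 to 23.7 FPKM on ISB-P, with a log2 difference of 0.70 between the films (SE 0.12, limma adjusted p = 0.0482, lost in each fit with a library left out). The search required a rise from TCP to PCL and favoured genes that ran like Akr1b8. That the 5 were lowest on TCP, with no overlap between PCL and ISB-P, therefore follows from how they were chosen. Their folds were smaller than those of Akr1b8 and Akr1b10, as the plot against TCP shows.

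**Figure D4:**
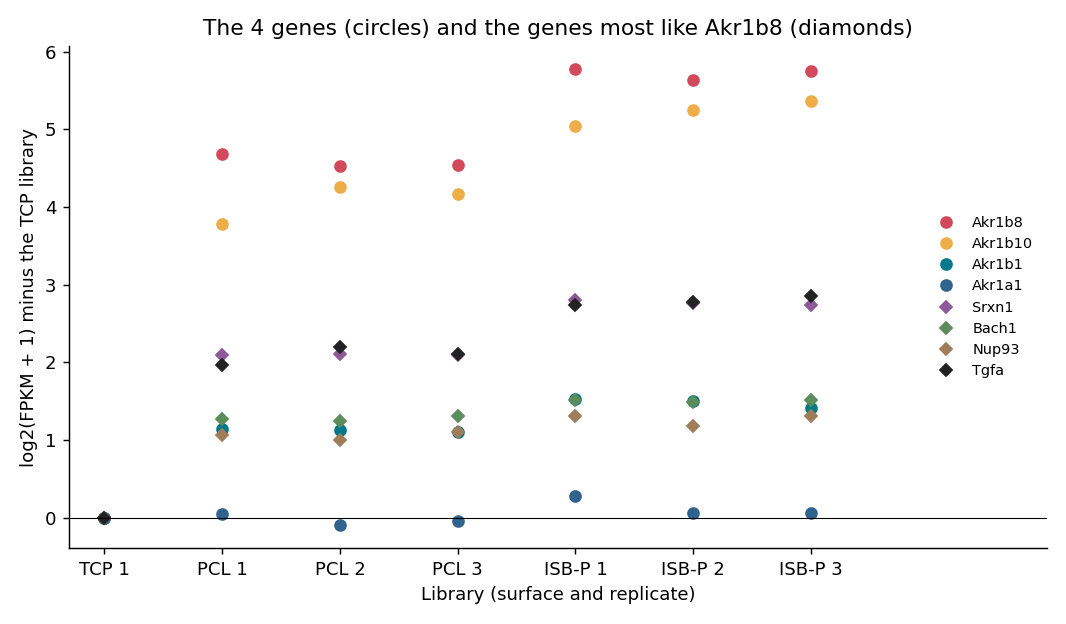
Difference of each library from the TCP library in log2(FPKM + 1) for Akr1b8, Akr1b10, Akr1b1 and Akr1a1 (circles) and for Srxn1, Bach1, Nup93 and Tgfa (diamonds), the genes most like Akr1b8. Akr1b8 and Akr1b10 form the top pair in every film library, and Akr1a1 stays near 0.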

How the data were processed

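Primary rMSCs from rat bone marrow were profiled by stranded mRNA sequencing 4 h after seeding on TCP (1 library), PCL (3) or ISB-P (3), grouped by the sample labels. The authors deposited 1 table of gene values per library, read here as FPKM. The submitters' processing notes list bcl2fastq 2.20.0.422, cutadapt 1.18, TopHat2 2.0.13, Cuffdiff 2.2.1 and the build rn5, without their roles, and the unit was taken from the values and from Cuffdiff. Depth is unknown, so no counting interval or detection floor is given.

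The values were used as deposited. ISB-P was compared with PCL over the 9467 genes that reached 1 FPKM in 3 or more of the 6 film libraries. The test was limma 3.58.1 in R 4.3.3 (eBayes with trend) on log2(FPKM + 1), a scale that understates the change of low genes, two-sided, with Benjamini-Hochberg adjustment over all tested genes and a threshold of 0.05. TCP entered no test. Same-numbered libraries of the films deviated together (r across genes 0.887, 0.431 and 0.867, against -0.836 to 0.177 for different numbers), so fits with the replicate number as a block were treated as paired. The pairing rests on these values and on the numbers in the labels. Fits were checked on simulated data whose libraries varied independently. No effect shared by same-numbered libraries was simulated, so the check does not bear on the block. Motifs were searched in RefSeq promoter windows of GRCr8, which held 3 of the 4 genes.

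The 4 genes and all lists were chosen with earlier results of these data known. Named genes were the 4 genes, other aldo-keto reductases above 1 FPKM in a library, the called members of each list (or the 2 most abundant where none was called), the neighbours on chromosome 4, and the 5 genes most like Akr1b8. Akr7a3 passed 1 FPKM in 1 library. Alternatives were upper quartile, quantile and common-total scaling, a pseudocount of 0.1, no filter, the block, TCP in the fit, and each replicate left out. Figures used matplotlib 3.10.9.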

Additional observations from a re-analysis of the deposited data

How the results depend on the processing

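The difference between the films kept its direction for Akr1b8, Akr1b10, Akr1b1 and Akr1a1 under every alternative run, but not its size. For Akr1a1 it fell from 0.16 to 0.02 under quantile normalization and to 0.05 under a common total. For Akr1b1 it fell from 0.36 to 0.23 and 0.24. The ratios of Akr1a1 to TCP crossed 1. With the replicate block, 1228 genes were called higher on ISB-P and 1079 lower, in place of 104 and 59, Akr1b1 passed (0.36, adjusted p = 0.00434), and the calls were 1 in the polyol, 2 in the tonicity, 4 in the carbonyl, 16 in the NRF2, 5 in the retinoid, 3 in the prostaglandin, 2 in the stromal and 2 in the haematopoietic list. Beside these list counts, the block called 13.0% of all tested genes higher and 11.4% lower. The block changed no call of Akr1b10 or Akr1a1. With 1 library left out, 14 to 82 genes were called higher and 6 to 31 lower, and Akr1b10 lost its call at values of 1.00 to 1.24. Upper quartile scaling gave 39 genes lower. Scaling to a common total moved the median of all genes from 0.02 to -0.09 on the log2 scale and gave 70 higher and 70 lower, where the unscaled values gave 104 and 59. The Akr1b8 difference was 1.02 under both quantile normalization and a common total.

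Against TCP, upper quartile scaling gave ratios of 22.6 (PCL) and 48.9 (ISB-P) for Akr1b8, 2.04 and 2.59 for Akr1b1 and 0.918 (PCL) for Akr1a1. Quantile normalization gave 22.2 and 45.0, 2.01 and 2.37, and 0.891 and 0.909 for the same genes. A common total gave 46.6 (ISB-P) for Akr1b8, 2.08 and 2.46 for Akr1b1 and 0.969 (ISB-P) for Akr1a1. A pseudocount of 0.1 gave 22.7 and 50.4 for Akr1b10. Genes over 2-fold higher on ISB-P than TCP numbered 359 to 840 with 1 ISB-P library left out (359 without replicate 3), against 581. The cause of these shifts was not tested. TCP, with 1 library, limits every comparison with it to a size.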
